A study of Homo sapiens with 12 samples.

Results

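The libraries compared here were the 3 DMSO libraries of PEO1 and the 3 DMSO libraries of COV362, chosen by their labels, 6 of the 12 RNA-seq libraries in the series. Both are established human ovarian carcinoma cell lines regarded as high-grade serous in type; as background, PEO1 carries a BRCA2 mutation and COV362 a BRCA1 mutation. All 6 cultures received the vehicle of the study's drug and shared 1 growth medium, DMEM with serum, nonessential amino acids, insulin, antibiotics and glutamine. The other 6 libraries, 3 of each line given 20 nM of the CHK1 inhibitor prexasertib, served as a second look at the same line difference. The labels describe the source as parental and give no treatment time and no statement that letters A, B and C are separate cultures, so p-values measure only the spread between these samples. With 1 line on each side, a difference of the lines cannot be told apart from one of their BRCA genotypes.

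Epithelial carcinoma cells are held together by E-cadherin junctions, claudin-based tight junctions and keratin-anchored desmosomes. Transcription and splicing regulators such as GRHL2, OVOL1, OVOL2 and ESRP1 maintain that state, while ZEB1, which binds E-box DNA, represses many of its genes and N-cadherin and vimentin mark its mesenchymal counterpart. Tumours of tubal or Müllerian origin are recognised by the transcription factors PAX8 and SOX17. Homologous recombination, in which BRCA1 and BRCA2 act, repairs double-strand breaks, and the ATR and CHK1 kinases hold the cell cycle while replication forks are stalled.

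Levels are counts per 1000000 counted reads (CPM), scaled by edgeR's TMM factors, and are listed in the order of libraries A, B and C. A gene was called when the Benjamini-Hochberg adjusted p of edgeR's quasi-likelihood test fell under 0.05 over 14498 tested genes. Log2 fold changes are PEO1 over COV362, so a positive value is higher in PEO1, and a number followed by its SE (standard error) is such a log2 fold change from the fit. Values with ± are the mean and SD of 3 libraries (n = 3), and where values are joined by "against" the line called higher comes first, or PEO1 for genes that overlap or were not called. Where 1 line had no count in any library, a lower bound is given in place of a fitted fold change, computed against a floor of 3 counts over its 3 libraries.

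The lines differed across much of the transcriptome. Of all tested genes 57.7% were called, 4216 higher in PEO1 (29.1%) and 4145 higher in COV362 (28.6%), and 16.7% were called with at least a 4-fold difference (8.6% toward PEO1 and 8.06% toward COV362). The 3 values of each line did not overlap for 63.5% of genes. Every count below is to be read against these shares, and each list median against the median log2 fold change over all tested genes, −0.01. Library totals ran from 9390790 (COV362 A) to 18262805 (COV362 B) in COV362 and from 15541151 to 18260493 in PEO1. Log2 CPM correlated across genes at 0.973 to 0.990 within COV362, at 0.987 to 0.993 within PEO1 and at 0.824 to 0.843 between lines. Deviations of the A libraries leaned toward short genes (Spearman's rho with exon length −0.433 in COV362 and −0.380 in PEO1). Those of COV362 B (0.461) and PEO1 C (0.341) leaned toward long ones. Such leanings can add to the spread of short and of long genes within a line, which was not tested.

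Both lines carried epithelial and Müllerian transcripts, and some markers of other tissues were detected as well. The 7 markers of carcinoma epithelium summed to 7257 to 8489 CPM in the PEO1 libraries and 2148 to 2702 CPM in those of COV362, where CDH1 was near 0. HBA1, HBA2, HBB, DCN, LUM, COL3A1, CD3E and MS4A1 had no count in any of the 6 libraries. Other fibroblast and leukocyte markers were detected at low levels. COL1A1 was at 4.78 CPM in COV362 and 6.18 in PEO1 and was not called. PDGFRB (3.34 CPM in COV362, 0.383 in PEO1) and PDGFRA (0.754 and 0) were called higher in COV362. FAP (0 CPM in COV362, 3.08 in PEO1) and CD14 (0.288 and 4.27) were called higher in PEO1. Endothelial markers summed to 82.5 to 96.9 CPM in COV362 and 6.49 to 7.77 CPM in PEO1, most of it from CDH5 (73.9 CPM in COV362). CDH5, PECAM1, VWF, KDR and TEK were all called higher in COV362, the last 4 at 1.12 (TEK) to 7.32 CPM (KDR) there. CLDN5 was at 0 in COV362 and 0.0834 CPM in PEO1 and was not called. The mesothelial marker CALB2 was at 42.2 CPM in PEO1 with no count in COV362, and the macrophage marker CD68 at 36.7 CPM in COV362 and 35.6 in PEO1. Their part in the line difference was not tested. A lower level in bulk RNA cannot be told apart from fewer cells that carry the transcript.

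PAX8 was close between the lines and most other Müllerian and serous markers were not. In this list 13 of 25 tested members were called higher in PEO1, 11 were called higher in COV362 and 1 was not called, and 20 differed by at least 4-fold, 10 each way. PAX8 (chr2:113215997-113278921), the lineage factor of tubal and ovarian serous epithelium, stood at 146, 130.2 and 156 CPM in PEO1 and 112, 87.5 and 109 in COV362. The groups did not overlap, but the difference was small (log2 fold change 0.49, SE 0.14, adjusted p = 0.0079). WT1, a zinc-finger factor used to recognise serous tumours, was low in both lines, at 9.20, 9.01 and 9.84 CPM in PEO1 and 4.96, 6.19 and 5.80 in COV362 (0.72, SE 0.22).

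SOX17, a partner of PAX8 in this lineage, had 42.9, 35.9 and 37.1 CPM in COV362 and 0 in all 3 PEO1 libraries, at least 653-fold lower there. EMX2, a homeobox factor of the developing urogenital tract, was at 82.0, 48.5 and 48.0 CPM in COV362 with no count in PEO1 (at least 951-fold). Also higher in COV362 were MECOM, a zinc-finger oncogene (93.6 ± 20.9 against 0.414 ± 0.221 CPM), and SPON1, a secreted spondin (406 ± 139 against 1.56 ± 0.110 CPM). MUC16, which encodes the CA125 antigen, was at 35.0, 72.1 and 41.6 CPM in COV362 and 5.29, 5.27 and 4.07 in PEO1 (−3.35, SE 0.35, adjusted p = 1.9e-06), and MUC1 at 54.7 ± 8.25 against 0.880 ± 0.199 CPM. FOLR1, the folate receptor targeted in this disease, had 4.36, 6.63 and 4.17 CPM in COV362 and no count in PEO1. WFDC2, the gene of the serum marker HE4, differed less (−1.21, SE 0.27).

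PEO1 was the higher line for ESR1, the estrogen receptor, with 56.6, 63.1 and 67.4 CPM against 5.93, 10.2 and 7.82 in COV362 (2.94, SE 0.29, adjusted p = 1.1e-06). It was also higher for EPCAM, an epithelial surface glycoprotein (431, 446 and 379 against 13.19, 11.4 and 11.1 CPM; 5.14, SE 0.22), for CD24 (279 ± 32.8 against 22.8 ± 2.24 CPM) and for MSLN, the gene of mesothelin (61.2 ± 10.8 against 8.72 ± 0.517 CPM). KLK6, a kallikrein protease, and UPK1B, a uroplakin, were nearly confined to PEO1 at these depths, with 2 and 0 counts over the COV362 libraries. No library of 1 line overlapped the other for any of these genes.

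Positional and developmental factors also split. In the HOX list 5 of 29 tested members were called higher in PEO1, 11 were called higher in COV362 and 13 were not called (median −0.54). Without COV362 B the counts were 3 and 12, against 4034 and 3904 of all 14878 genes tested then. HOXD9 (20.6, 10.2 and 12.8 CPM in COV362) and HOXA11 (4.11, 3.72 and 5.80) had no count in PEO1, and HOXA4 had 1 count there against a mean of 6.77 CPM. HOXA10 (1.32, SE 0.35) and HOXC9 (1.80, SE 0.43) were called the other way, at low levels. Of the SOX, GATA and other lineage factors 8 of 22 tested members were called higher in PEO1, 12 were called higher in COV362 and 2 were not called. SOX2, a stem cell factor, was at 6.47 ± 1.32 CPM in COV362 and 0.110 ± 0.190 in PEO1, SOX4 at 119 ± 20.7 and 22.3 ± 1.51. SOX5 and GATA5 were found in COV362 alone of the 2 lines (at least 174-fold and 43.8-fold), and SOX11 in PEO1 alone (at least 126-fold).

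The regulators of epithelial fate were the most one-sided of the 39 lists by median. All 15 tested members were called, 13 higher in PEO1 and 2 in COV362, with a median log2 fold change of 4.62. With the replicate block, and without COV362 A, B or C or PEO1 A or C, 1 gene in place of 2 was called higher in COV362. GRHL2, a grainyhead factor that activates epithelial junction genes, had 86.7, 82.9 and 79.5 CPM in PEO1 and no count in COV362 (at least 1156-fold). RAB25, a GTPase of epithelial recycling endosomes, had 98.6, 85.3 and 80.9 CPM in PEO1 and 1 count over the COV362 libraries (chr1:156061175-156070504). ESRP1, the epithelial splicing regulator, was at 132, 174 and 153 CPM against 0.242, 0.383 and 0.587 (8.46, SE 0.37). The zinc-finger factors OVOL1 and OVOL2 followed, OVOL1 with no count in COV362 and OVOL2 at 25.7 ± 1.49 against 0.479 ± 0.367 CPM. The ETS factors ELF3 (4.62, SE 0.23) and EHF (2.61, SE 0.21) were higher in PEO1 too. KLF4 (2.11, SE 0.23) moved with them, whereas its relative KLF5 was higher in COV362, at 129, 130.4 and 127 CPM against 36.9, 36.8 and 39.1 (−1.78, SE 0.14).

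The transcription factors tied to epithelial-mesenchymal transition (EMT) were called on both sides. In that list 8 of 13 tested members were called higher in PEO1, 3 were called higher in COV362 and 2 were not called. ZEB1 (chr10:31319172-31529814) was higher in COV362, at 15.2, 45.4 and 34.4 CPM against 1.44, 1.90 and 1.92 in PEO1 (−4.17, SE 0.46, adjusted p = 3.5e-06), with COV362 A the lowest of its group. TWIST1 was higher in COV362 as well (−1.75, SE 0.27). At low levels, PEO1 was higher for ZEB2 (2.17 ± 0.417 against 0.412 ± 0.265 CPM), FOXC1 (20.7 ± 2.65 against 3.51 ± 0.578) and SNAI1 (8.05 ± 1.18 against 4.57 ± 0.951).

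Both lines expressed simple-epithelial keratins. Keratins of stratified epithelium differed among themselves, with KRT5 near 0 in COV362 and KRT4 higher there. In the keratin list 14 of 17 tested members were called higher in PEO1, 1 was called higher in COV362 and 2 were not called, with a median of 2.79, or 2.43 with the gene absent from 1 line set at its bound. Per kilobase of exon, KRT7 led the named keratins in PEO1 (1786 ± 172 RPKM, CPM per kilobase of exon) and stood below KRT18 in COV362 (472 ± 82.0 against 550.4 ± 129.6). KRT7, a keratin of glandular epithelium, was at 3378, 2859 and 2882 CPM in PEO1 and 911, 646 and 854 in COV362 (1.92, SE 0.20). KRT8 (1.13, SE 0.13) and KRT18 (0.98, SE 0.22) pair in simple epithelia; their annotated spans overlap on opposite strands, so their counts cannot be fully separated in this unstranded library. KRT19 was at 764, 719 and 662 CPM in PEO1 against 8.47, 10.6 and 9.25 (6.23, SE 0.25), and KRT5, the basal keratin of stratified epithelium, at 270.0, 241 and 222 against 0.242, 0 and 0.130 (adjusted p = 2.7e-10). KRT81, a hair keratin with close copies, was at 517 ± 145 against 5.35 ± 0.974 CPM and KRT15 at 39.5 ± 1.43 against 3.69 ± 0.586. KRT4 was the 1 keratin called higher in COV362, at 101, 66.7 and 61.0 CPM against 2.68, 3.04 and 3.02 (−4.70, SE 0.33).

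**Figure D1:**
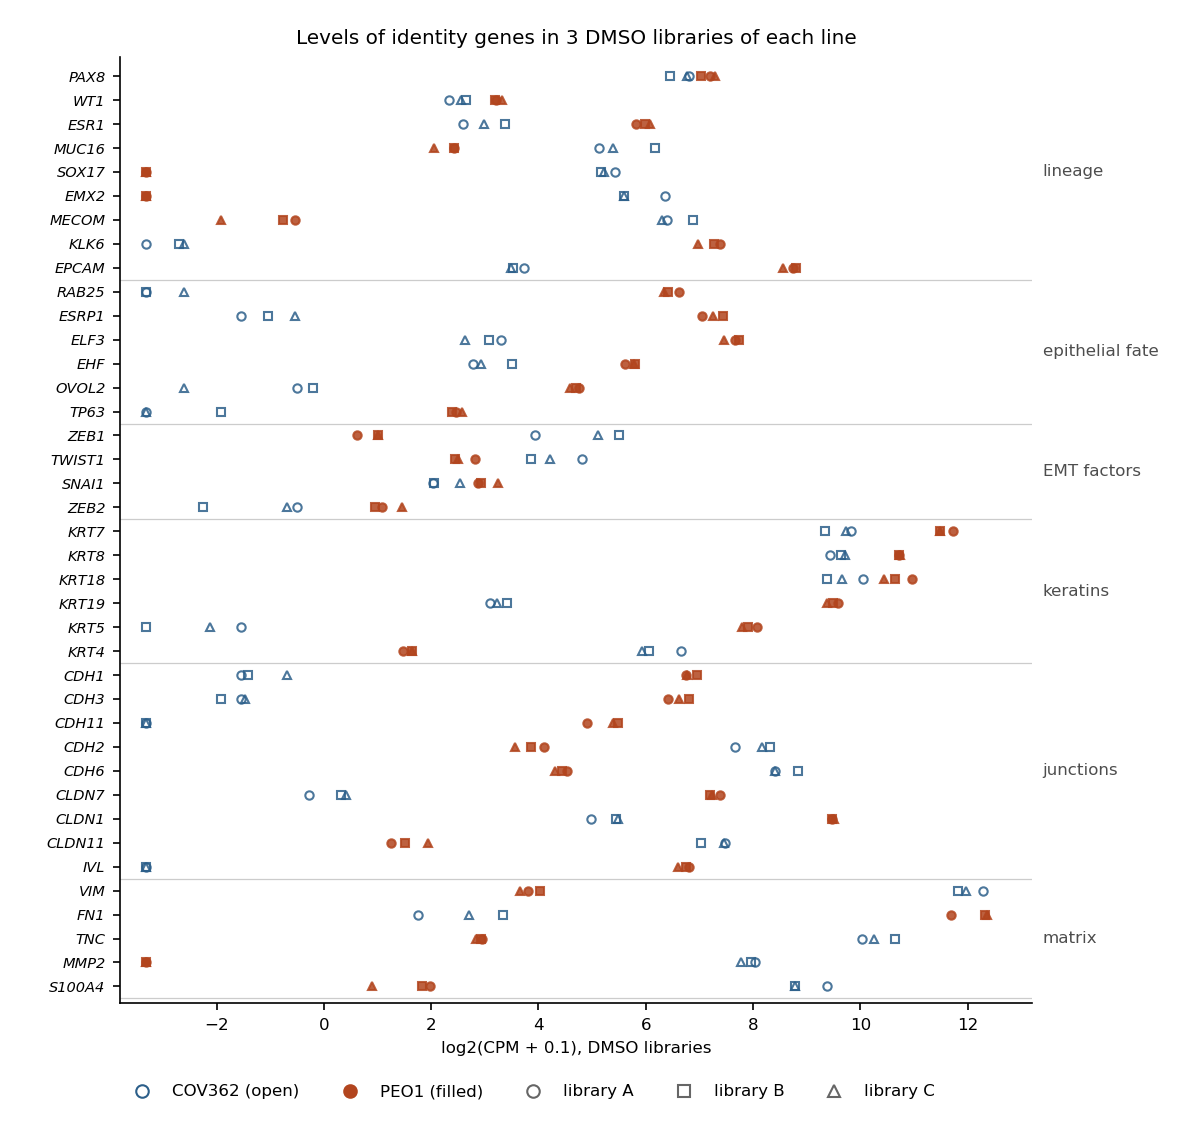
Levels of lineage, epithelial, EMT, keratin, junction and matrix genes in each DMSO library, as log2(CPM + 0.1) on the horizontal axis; open blue symbols are COV362, filled orange symbols PEO1, and symbol shape is the library letter. PAX8 lies close together in the lines, while epithelial genes such as RAB25, ESRP1 and CDH1 lie far to the right in PEO1 and VIM, TNC, MMP2 and SOX17 far to the right in COV362.

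The classical cadherins differed in opposite directions. E-cadherin, CDH1 (chr16:68737292-68835541), had 108, 124 and 109 CPM in PEO1 and 0.242, 0.274 and 0.521 in COV362 (8.28, SE 0.38, adjusted p = 6.5e-10). Its neighbour CDH3, P-cadherin, had 85.05, 111 and 98.8 against 0.242, 0.164 and 0.261 (8.78, SE 0.38). N-cadherin, CDH2 (chr18:27950963-28177446), ran the other way, with 204, 319.6 and 288 CPM in COV362 and 17.04, 14.4 and 11.8 in PEO1 (−4.23, SE 0.22, adjusted p = 2.2e-09). CDH6, the kidney and Müllerian cadherin that is a drug target in ovarian cancer, had 342, 456 and 341 against 22.9, 21.7 and 19.7 (−4.15, SE 0.16). No values overlapped for these 4 genes. Per kilobase, CDH2 (60.8 ± 13.5 RPKM) and CDH6 (44.3 ± 7.70) led in COV362, and CDH1 (23.6 ± 1.83) and CDH3 (23.01 ± 3.08) were level in PEO1. CDH11, a mesenchymal cadherin, was detected in PEO1, at 29.8, 44.8 and 41.6 CPM with no count in COV362 (at least 548-fold). FAT4, a giant protocadherin, was higher in COV362 (29.3 ± 15.4 against 0.640 ± 0.522 CPM). In the whole list 6 of 20 tested members were called higher in PEO1, 11 were called higher in COV362 and 3 were not called, with 5 and 10 of the called members at least 4-fold apart (median −1.87).

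Of the adherens junction partners 5 of 11 tested members were called higher in PEO1, 2 were called higher in COV362 and 4 were not called. JUP, plakoglobin, was at 287 ± 31.3 against 45.5 ± 4.48 CPM and beta-catenin, CTNNB1, at 579.5 ± 20.5 against 357 ± 17.4 (0.70, SE 0.13). Nectins bind across the junction: PVRL4 (nectin-4) was at 27.7, 25.5 and 22.5 CPM in PEO1 against 1 count in COV362, and PVRL1 at 45.6 ± 4.40 against 6.57 ± 1.66 CPM. CTNND2, a catenin better known from neurons, was at 19.8 ± 1.42 against 1.37 ± 0.281. Vinculin, VCL, which links junctions and focal adhesions to actin, was higher in COV362 (504 ± 114 against 138 ± 24.4 CPM, −1.87, SE 0.22).

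Tight junction genes were mostly higher in PEO1: 16 of 25 tested members were called higher in PEO1, 4 were called higher in COV362 and 5 were not called (median 1.97). CLDN7 (chr17:7259903-7263193), a claudin of glandular epithelium, had 166, 147 and 151 CPM in PEO1 and 0.726, 1.15 and 1.24 in COV362 (7.14, SE 0.25, adjusted p = 7.0e-11). CLDN1 had 711, 710.5 and 733 against 31.5, 43.3 and 44.6 (4.17, SE 0.25), and CLDN4 129, 112 and 123 against 16.2, 17.1 and 20.3 (2.75, SE 0.16). Occludin, OCLN, its relative MARVELD3, the polarity protein CRB3, the tricellular receptor LSR, the adhesion molecule F11R and the scaffold CGN were all called higher in PEO1. Log2 fold changes ran from 3.43 (F11R) to 4.16 (LSR), apart from MARVELD3 and CRB3, which had 5 and 1 counts over the COV362 libraries. CLDN11, a claudin of oligodendrocytes and Sertoli cells, went the other way, with 177, 130.2 and 176 CPM in COV362 and 2.28, 2.77 and 3.74 in PEO1 (−5.77, SE 0.22).

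Because ZEB1 and SNAI factors are known to bind the E-box CACCTG, or CAGGTG when read on the other strand, the 250 bases before RefSeq starts (build GRCh38.p14) were searched for those letters on both strands. At least 1 match stood in 17.5% of all promoters (6143 of 35116). Among tight junction genes called higher in PEO1, 10 of 16 had an entry, and 6 of their 13 promoters held a match, as did 4 of 9 promoters of desmosome and cornified-envelope genes higher there. Among epithelial fate regulators higher in PEO1 the count was 2 of 13, below the share of all promoters, and among those higher in COV362 it was 1 of 3. Cadherins had 1 of 2 promoters with a match among genes higher in PEO1 and 1 of 11 among genes higher in COV362, and keratins 1 of 2 and 0 of 1. Tight junction genes higher in COV362 had 0 of 5. A match is a string of letters and not a binding site. The sequences shown are the promoters of CLDN7 (the second of its listed starts) and RAB25, chosen after their matches were seen, and of VIM, a gene higher in COV362 without one, each read 5′ to 3′ on the gene's strand, with matches in capitals. ZEB1, also higher in COV362, had 1 match before one of its listed starts and 2 before another.
CLDN7, chr17:7262479-7262728, minus strand: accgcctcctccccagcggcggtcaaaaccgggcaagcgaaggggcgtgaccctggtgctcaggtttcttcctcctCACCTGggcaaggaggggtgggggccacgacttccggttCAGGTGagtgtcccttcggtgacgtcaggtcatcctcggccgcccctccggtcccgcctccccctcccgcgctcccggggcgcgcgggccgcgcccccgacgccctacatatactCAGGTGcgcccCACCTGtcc
RAB25, chr1:156060910-156061159, plus strand: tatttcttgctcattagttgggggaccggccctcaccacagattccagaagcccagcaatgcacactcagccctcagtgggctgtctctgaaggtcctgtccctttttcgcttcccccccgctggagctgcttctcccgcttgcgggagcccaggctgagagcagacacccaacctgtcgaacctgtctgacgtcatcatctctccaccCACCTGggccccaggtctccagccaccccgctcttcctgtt
VIM, chr10:17227991-17228240, plus strand: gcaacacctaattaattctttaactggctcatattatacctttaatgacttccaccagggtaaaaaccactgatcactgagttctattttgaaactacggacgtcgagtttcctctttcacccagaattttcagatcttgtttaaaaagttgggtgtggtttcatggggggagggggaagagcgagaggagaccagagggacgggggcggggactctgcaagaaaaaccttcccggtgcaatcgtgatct
The CLDN7 stretch held 4 matches and the RAB25 stretch 1. The first listed CLDN7 start (chr17:7263214-7263463) held 0, so the count depends on which start is read. CDH1, CDH3, EPCAM and OVOL1 had no entry in the table.

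Desmosome and cornified-envelope genes were mostly higher in PEO1: 12 of 14 tested members were called higher in PEO1, 1 was called higher in COV362 and 1 was not called (median 2.91). The 1 call toward COV362 was lost without COV362 B, COV362 C or PEO1 A. IVL, involucrin, a protein of the cornified envelope of squamous cells, had 111, 107 and 97.5 CPM in PEO1 and no count in COV362 (chr1:152908563-152911886). PKP1, a desmosomal plaque protein, was at 10.3 ± 1.38 against 0.437 ± 0.169 CPM. SFN, the epithelial 14-3-3 protein, was at 254, 186 and 213 against 13.43, 11.01 and 15.4 CPM (4.04, SE 0.22), and TGM1, the transglutaminase that crosslinks the envelope, at 44.2 ± 2.07 against 3.81 ± 0.423. The desmosomal cadherins DSG2 (1.76, SE 0.25) and DSC3 (3.12, SE 0.25) were higher by smaller steps. S100A9, a calgranulin of stressed squamous cells and neutrophils, had 132, 107 and 96.0 CPM in PEO1 and no count in COV362, and the kallikrein KLK5, a protease of squamous epithelium, 258, 229.9 and 187 and no count (at least 3114-fold, the highest bound toward PEO1 among genes with no count). TP63, the factor of basal and squamous epithelium, was present at 5.42, 5.16 and 5.83 CPM in PEO1 against 0, 0.164 and 0, a ratio of 76.3-fold with a 95% counting interval of 25.9 to 372.

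Integrins, the receptors for matrix, were called in similar numbers each way. Of the subunits 6 of 22 tested members were called higher in PEO1, 7 were called higher in COV362 and 9 were not called, a share of 59.1% against 57.7% of all genes. ITGB6, an epithelial subunit that activates TGF-beta, was at 50.8, 75.3 and 72.9 CPM in PEO1 and 0, 1.15 and 0.196 in COV362 (adjusted p = 4.5e-07). The collagen receptor subunit ITGA2 (3.53, SE 0.44) and ITGB4 (1.08, SE 0.25), the hemidesmosome subunit, were also higher in PEO1. ITGB3 was at 9.68, 28.7 and 17.5 CPM in COV362 and 0, 0.109 and 0.385 in PEO1 (adjusted p = 3.1e-06), with ITGA9 (9.32 ± 4.68 against 0.145 ± 0.137 CPM) and ITGB8 (−2.51, SE 0.27) on the same side.

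The basement membrane genes leaned to PEO1, with 12 of 22 higher there and 5 higher in COV362. The laminin chains LAMA3 (284 ± 46.4 against 36.0 ± 11.6 CPM) and LAMB3 (61.0 ± 3.29 against 6.87 ± 2.87) were higher in PEO1. Collagen IV chains COL4A1 (2.09, SE 0.26) and COL4A2 (1.72, SE 0.18) were also higher, and COL4A5 had no count in COV362 (9.27, 14.1 and 16.1 CPM in PEO1). NID1, the nidogen that bridges laminin and collagen IV, was instead at 50.1, 72.4 and 63.0 CPM in COV362 against 1.17, 0.923 and 1.21 (−5.81, SE 0.27), and LAMC3 was found only there of the 2 lines (at least 96.7-fold).

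Fibrillar matrix and mesenchymal genes included very abundant transcripts of opposite direction. The intermediate filament VIM (chr10:17228259-17237593) stood at 5009.5, 3631 and 4007 CPM in COV362 and 13.9, 16.2 and 12.5 in PEO1, 297-fold lower there (−8.21, SE 0.24, adjusted p = 1.2e-11). Fibronectin, FN1 (chr2:215360440-215436070), stood at 3304, 5116 and 5241 CPM in PEO1 and 3.27, 10.1 and 6.39 in COV362, 692-fold lower there (9.38, SE 0.62, adjusted p = 2.1e-08). The A library was the lowest of its group for FN1 in both lines. TNC, tenascin C, followed VIM (1047, 1599 and 1221 CPM in COV362, 7.64, 7.55 and 7.04 in PEO1; −7.44, SE 0.21). S100A4 was at 515 ± 129 CPM in COV362 against 3.03 ± 1.11 in PEO1, and VCAN, versican, at 70.1 ± 27.7 against 0.422 ± 0.305. The gelatinase MMP2 (chr16:55478830-55506691) had 263, 251 and 220.3 CPM in COV362 and no count in PEO1, at least 4189-fold lower there, the highest bound toward COV362 among genes with no count. COL6A2 had no count in PEO1 either, and THBS1 was modestly higher in PEO1 (0.88, SE 0.22). Over the list 8 of 25 tested members were called higher in PEO1, 12 were called higher in COV362 and 5 were not called (median −0.48).

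Other surface adhesion molecules were called in 16 of 17 cases, 10 higher in PEO1 and 6 in COV362. CEACAM6, an epithelial adhesion molecule (1.83, 2.93 and 1.92 CPM), had no count in COV362, and MUC20, a mucin listed on several sequences, was at 9.95 ± 1.89 against 0.123 ± 0.131 CPM. CD44, the hyaluronan receptor, was the uncalled member: 669, 765 and 717 CPM in PEO1 and 719.7, 742 and 815 in COV362 overlapped (−0.08, SE 0.12, adjusted p = 0.58).

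Taken by theme, adhesion and lineage lists held larger shares of called genes than the table as a whole. The repair, checkpoint and cell death lists together did not, in the fit without the replicate block. Of 173 tested adhesion genes 79.8% were called and 53.2% were called with at least a 4-fold difference. For 104 lineage genes the shares were 82.7% and 53.8%, for 332 signalling genes 70.5% and 37.7%, and for 236 repair, checkpoint and cell death genes 53.8% and 6.78%. The same shares over all tested genes were 57.7% and 16.7%. Within the repair theme, the BCL2 family (76.5% called), G1 control genes (64.7%) and replication checkpoint genes (63.9%) lay above the share of all genes. With the replicate block, 80 of the 236 were called higher in PEO1 and 87 in COV362, against 4980 and 4930 of all 14498. The repair share was then no longer below that of all genes.

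**Figure D2:**
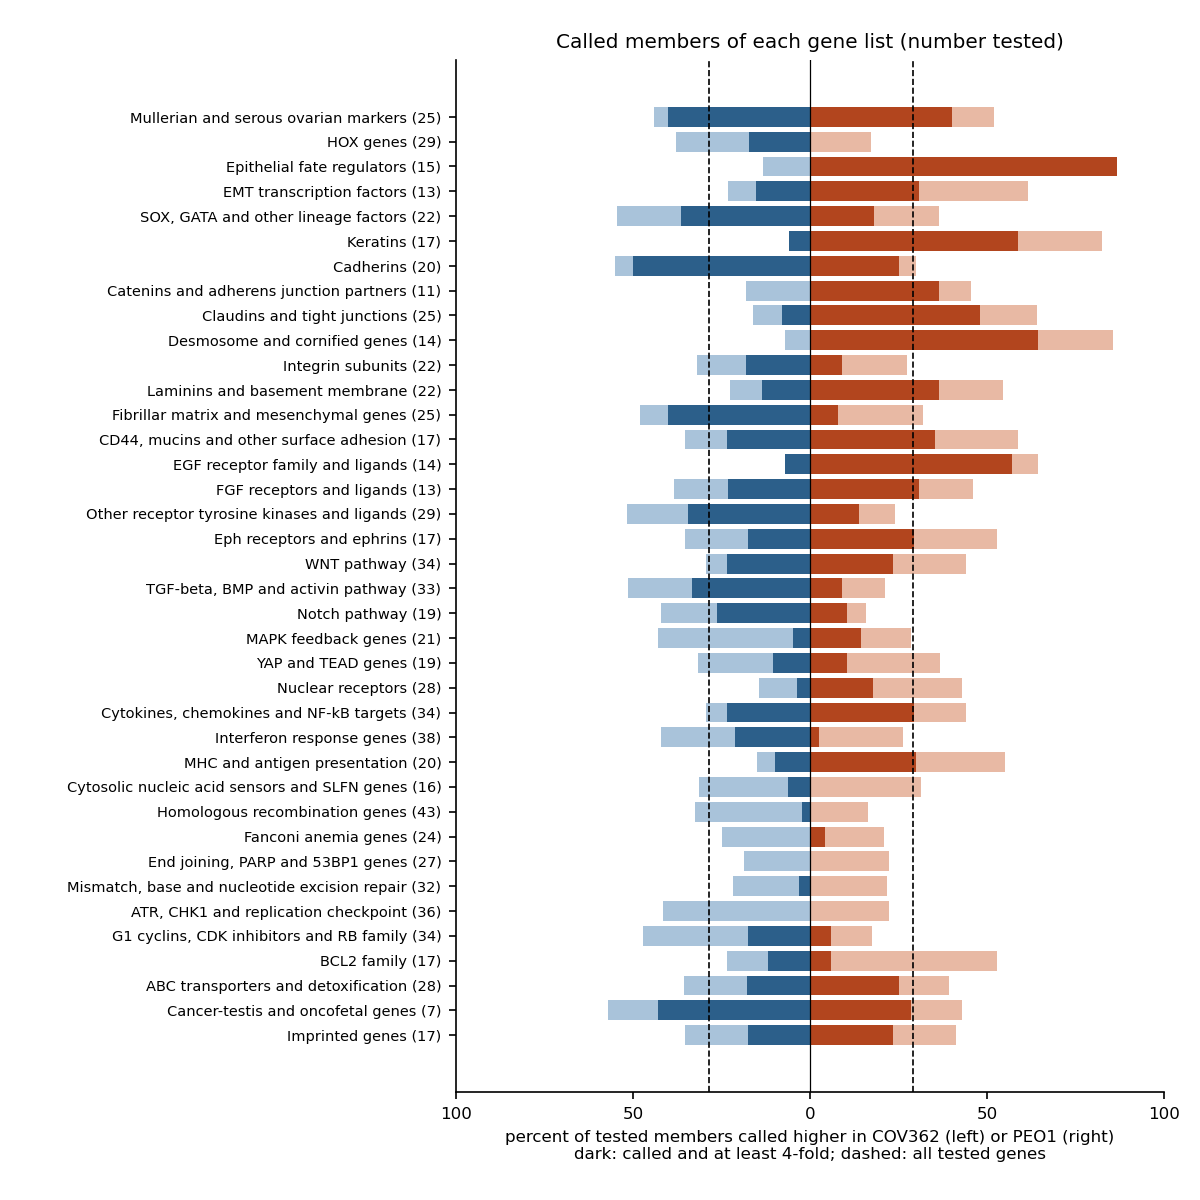
For each gene list shown, bars give the percent of tested members called higher in PEO1 (right, orange) or COV362 (left, blue), with the dark part at least 4-fold apart and the number tested in brackets; dashed lines mark all tested genes. Epithelial fate regulators, keratins, desmosome genes and EGF family genes extend far to the right, TGF-beta pathway genes and other receptor tyrosine kinases to the left, and the DNA repair lists carry almost no dark bar.

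Epidermal growth factor (EGF) receptors and ligands were mostly higher in PEO1. In the EGF family 9 of 14 tested members were called higher in PEO1, 1 was called higher in COV362 and 4 were not called (median 2.49). Among receptors, ERBB3, the kinase-impaired partner of ERBB2, had 86.4, 105 and 96.1 CPM in PEO1 and 2.78, 2.30 and 1.69 in COV362 (5.44, SE 0.20, adjusted p = 1.1e-10). ERBB2 had 150.4, 141.8 and 149 against 51.3, 55.6 and 57.5 (1.42, SE 0.15), and ERBB4 was the 1 member called higher in COV362, with 0.605, 3.01 and 1.499 CPM and no count in PEO1. With the 6 DMSO libraries alone, 8 of 12 tested members were called higher in PEO1 and 0 in COV362, against 4088 and 4008 of all 13727 genes tested then. EGFR overlapped between lines (67.5, 144 and 185 against 40.8, 160.4 and 97.04 CPM; adjusted p = 0.49), was lowest in both A libraries and was called with the letters as a replicate block (adjusted p = 0.0068). Among ligands, AREG (5.44 ± 0.175 against 0.204 ± 0.154 CPM), BTC (2.47 ± 1.70 against 0.234 ± 0.0994), HBEGF (96.4 ± 8.37 against 19.1 ± 3.03) and TGFA (121 ± 6.24 against 19.4 ± 1.12) were all higher in PEO1. The neighbouring ligand genes EPGN, EREG, AREG and BTC on chromosome 4 formed part of a run of 6 neighbouring genes higher in PEO1.

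Of the FGF family 6 of 13 tested members were called higher in PEO1, 5 were called higher in COV362 and 2 were not called. The ligand FGF5 was at 68.4, 76.9 and 82.9 CPM in PEO1 and 0.242, 0.329 and 0.391 in COV362 (7.80, SE 0.38), FGF18 at 144, 96.7 and 114 in COV362 and 0.0653, 0.326 and 0.440 in PEO1 (−8.64, SE 0.36). Among receptors FGFR2 was higher in PEO1 (68.2 ± 5.06 against 7.12 ± 1.66 CPM). FGFR1 (35.1 ± 1.81 against 17.1 ± 1.88) and FGFR4 (2.97 ± 0.801 against 0.189 ± 0.0735) were higher in COV362, where FGFR3 also appeared (3.27, 3.29 and 3.52 CPM, no count in PEO1).

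Other receptor tyrosine kinases leaned to COV362, with 15 of 29 called higher there and 7 higher in PEO1. IGF1R (chr15:98648539-98964530), the receptor of insulin-like growth factor 1, had 71.5, 92.9 and 75.6 CPM in COV362 and 0.718, 0.651 and 0.330 in PEO1, 141-fold lower (−7.14, SE 0.24, adjusted p = 4.8e-11). The insulin receptor INSR differed the other way (54.3, 49.5 and 43.7 against 17.1, 14.1 and 13.8 CPM, 1.72, SE 0.19), in a medium that held insulin for both lines. KDR and FLT4, receptors for vascular endothelial growth factors, were low but higher in COV362 (7.32 ± 0.888 against 0.102 ± 0.0815 and 2.88 ± 0.807 against 0.0362 ± 0.0627 CPM). AXL (−0.92, SE 0.12), the collagen receptor DDR2 (−5.83, SE 0.49) and the ligand PDGFC (−3.37, SE 0.19) lay on the same side. DDR1 (2.28, SE 0.13), the epithelial collagen receptor, MST1R (4.52, SE 0.31) and GAS6, the ligand of AXL (158, 128 and 156 against 8.83, 9.15 and 10.8 CPM), were higher in PEO1. MET, the hepatocyte growth factor receptor, was not called (−0.24, SE 0.22, adjusted p = 0.36, or 0.048 with the replicate block).

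Eph receptors, which read cell-bound ephrins, were called in 15 of 17 cases. EPHA1 had 50.1, 51.3 and 57.7 CPM in PEO1 and 0, 0.0548 and 0.130 in COV362, and EPHB1 19.2, 21.2 and 17.8 against 0.363, 0 and 0.130. The ligand EFNB3 was higher in COV362 (31.0 ± 4.47 against 1.17 ± 0.363 CPM). In the WNT list 15 of 34 tested members were called higher in PEO1, 10 were called higher in COV362 and 9 were not called. Ligands WNT5B (171 ± 27.8 against 15.7 ± 4.64 CPM) and WNT7B (160.2 ± 9.39 against 22.8 ± 0.759) and the receptor LGR4 (2.27, SE 0.33) were higher in PEO1. The inhibitor DKK1 (152 ± 20.3 against 18.6 ± 1.38 CPM), the ligand WNT11 (−4.46, SE 0.33), the target AXIN2 (−2.67, SE 0.50), LGR6 (28.2 ± 1.74 against 2.02 ± 0.238 CPM), and the low genes LGR5 (1.69, 3.29 and 1.24 CPM, no count in PEO1) and RSPO3 (96 counts over the COV362 libraries against 3) were higher in COV362.

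The TGF-beta, BMP and activin pathway leaned to COV362: 7 of 33 tested members were called higher in PEO1, 17 were called higher in COV362 and 9 were not called (median −0.65). Among ligands, TGFB1 had 37.3, 34.9 and 45.6 CPM in COV362 and 5.61, 5.37 and 5.28 in PEO1 (−2.86, SE 0.24), TGFB2 was also higher in COV362 (−3.22, SE 0.43) and BMP4 had 62.9, 38.2 and 49.4 against 1.24, 0.814 and 1.65 (−5.33, SE 0.28). Receptors TGFBR2 (308 ± 43.5 against 80.1 ± 4.85 CPM) and BMPR1B (10.1 ± 2.76 against 0.453 ± 0.371) and the inhibitory SMAD6 (−4.02, SE 0.42) were on the same side. INHBB, an activin subunit, was higher in PEO1, with 380.1, 316 and 304 CPM in PEO1 and 10.4, 8.76 and 10.8 in COV362 (5.07, SE 0.16, adjusted p = 1.7e-11), as was the BMP target ID3 (1.99, SE 0.24).

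Notch genes were called in 11 of 19 cases, 57.9% against 57.7% of all genes, 3 higher in PEO1 and 8 in COV362. With the replicate block the counts were 5 and 10, against 4980 and 4930 of all 14498 tested genes. The receptor NOTCH3 (33.2, 32.4 and 32.8 against 1.69, 2.68 and 1.69 CPM) and ligand JAG2 (2.68, SE 0.22) were higher in PEO1, while the ligand DLL3 was found in COV362 (2.42, 2.36 and 2.48 CPM) with no count in PEO1. MAPK feedback genes, which report on ERK signalling, were mixed, with 6 higher in PEO1 and 9 in COV362 of 21. SPRY1 was higher in COV362 (−4.67, SE 0.31), DUSP2 (3.33 ± 0.555 against 0.270 ± 0.187 CPM) and DUSP8 (2.56, SE 0.38) in PEO1.

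Genes around the co-activator YAP1 were called on both sides (7 higher in PEO1 and 6 in COV362 of 19). ANKRD1 (chr10:90912100-90921275), a muscle and YAP-responsive ankyrin protein, had 717, 802 and 806 CPM in COV362 and 8.03, 8.09 and 6.54 in PEO1 (−6.68, SE 0.17, adjusted p = 5.5e-12). VGLL1, a TEAD cofactor, had 175, 155 and 128 CPM in PEO1 against 1 count in COV362. NF2 (chr22:29603556-29698600), the tumour suppressor merlin that acts upstream of YAP1, had 134, 98.7 and 111 CPM in COV362 and 0, 0 and 0.165 in PEO1, 3 counts in all, a ratio of 1908-fold with a 95% counting interval of 652 to 9253. AMOT was higher in COV362 (−3.20, SE 0.30), AMOTL1 in PEO1 (2.66, SE 0.20) and TEAD1 in PEO1 (0.87, SE 0.18). YAP1 itself was slightly higher in PEO1 (179, 197 and 201 against 127, 162 and 147 CPM; 0.40, SE 0.13, adjusted p = 0.016), a call lost without COV362 A (0.31), PEO1 B (0.38) or PEO1 C (0.37).

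Among nuclear receptors 12 of 28 tested members were called higher in PEO1, 4 were called higher in COV362 and 12 were not called. Besides ESR1, PEO1 was higher for PPARG (31.3 ± 4.03 against 2.46 ± 0.454 CPM), and COV362 for the mineralocorticoid receptor NR3C2 (10.4 ± 3.13 against 0.838 ± 0.276).

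Inflammatory and interferon genes ran in different directions. Of cytokines, chemokines and NF-kB targets 15 of 34 tested members were called higher in PEO1, 10 were called higher in COV362 and 9 were not called. The adhesion receptor ICAM1 was at 71.0, 76.3 and 81.0 CPM in PEO1 and 4.36, 1.86 and 4.43 in COV362 (4.47, SE 0.25), IL6 at 38.1, 32.0 and 36.0 against 3.63, 3.12 and 4.89 (3.18, SE 0.22), CXCL1 at 18.6 ± 3.46 against 2.17 ± 0.321, TNF, listed on several sequences, at 14.5 ± 1.36 against 0.280 ± 0.245, TNFSF15 at 4.12 ± 1.36 against 0.0365 ± 0.0633, and the NF-kB inhibitor NFKBIA at 103 ± 2.43 against 31.2 ± 3.91. CX3CL1, a membrane chemokine, was found in COV362 (2.90, 3.12 and 4.95 CPM) and not in PEO1. The decoy receptor IL1R2 (chr2:101991844-102028422), which binds interleukin 1 without signalling, was the most abundant of the genes near 0 in COV362, at 379, 369 and 335 CPM against 0, 0 and 0.130, a ratio of 7538-fold with a 95% counting interval of 2087 to 62251. It lay in a run of 10 neighbouring genes on chromosome 2 higher in PEO1, with IL1R1, IL1RL2, IL1RL1 and IL18R1.

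Of interferon response genes 10 of 38 tested members were called higher in PEO1, 16 were called higher in COV362 and 12 were not called, and 8 of those higher in COV362 but 1 of those higher in PEO1 reached 4-fold. BST2, tetherin, which holds budding virus at the cell surface, had 198, 149.6 and 158 CPM in COV362 and 0, 0.271 and 0.165 in PEO1 (adjusted p = 6.0e-10). IFITM2, a membrane protein with close copies, had 292, 167 and 185 against 0.718, 0.271 and 1.26 (adjusted p = 1.0e-08), OAS2 26.7, 47.5 and 30.2 against 0, 0 and 0.110, and IFI27, listed on several sequences, 125, 145 and 127 against 1.37, 1.68 and 1.59 (−6.41, SE 0.19). XAF1 was likewise higher in COV362 (11.4 ± 2.00 against 0.102 ± 0.0982 CPM).

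Antigen presentation genes leaned to PEO1 (11 of 20, against 3 in COV362). ERAP2, which trims peptides for HLA class I, had 115, 136 and 130.2 CPM in PEO1 and 1.09, 1.53 and 1.11 in COV362 (6.63, SE 0.28). HLA-C (2.19, SE 0.12), HLA-DMA (5.50 ± 0.655 against 0.610 ± 0.539 CPM) and the immunoproteasome subunit PSMB9 (2.73, SE 0.26), all listed on several sequences, were higher in PEO1, and CD74, the class II invariant chain, in COV362 (11.3, 14.4 and 15.1 against 0.457, 0.489 and 0.220 CPM). B2M, the shared light chain of class I, was not called (0.20, SE 0.12, adjusted p = 0.17). Nucleic acid sensors were called in 10 of 16 cases, 5 each way. TREX1, a nuclease that degrades cytosolic DNA, was higher in COV362 (18.9, 14.7 and 19.3 against 1.83, 0.977 and 2.20 CPM, −3.40, SE 0.33), and DDX58, the RNA sensor RIG-I, in PEO1 (1.73, SE 0.22). SLFN12 was higher in COV362 (−1.59, SE 0.40). SLFN11, a helicase-like protein whose level is linked to sensitivity to replication-damaging drugs, was higher in PEO1 at 22.4, 35.8 and 35.7 CPM against 8.35, 22.0 and 14.1 (1.06, SE 0.30, adjusted p = 0.0076).

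DNA repair genes were seldom 4-fold apart. In the homologous recombination list 7 of 43 tested members were called higher in PEO1, 14 were called higher in COV362 and 22 were not called, a share of 48.8% against 57.7% of all genes (median −0.33), and 1 member, SWI5, differed by at least 4-fold. With the replicate block the counts were 9 and 21, against 4980 and 4930 of all 14498 tested genes. The list's share was then no longer below that of all genes. BRCA1 (chr17:43044295-43125483) was at 98.9, 122 and 121 CPM in PEO1 and 88.6, 108 and 95.2 in COV362, the line with the BRCA1 mutation. The groups overlapped and the gene was not called (0.23, SE 0.16, adjusted p = 0.24), although it was with the replicate block (adjusted p = 0.028). BRCA2 (chr13:32315480-32399672) was at 2.42, 5.65 and 6.65 CPM in PEO1, the line with the BRCA2 mutation, and 10.4, 21.5 and 16.3 in COV362 (−1.71, SE 0.41, adjusted p = 0.0025). The A library was the lowest of its group in both lines, and the groups did not overlap.

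PALB2, which joins BRCA1 to BRCA2, was higher in PEO1 (25.7, 33.4 and 31.1 against 13.8, 16.9 and 17.01 CPM, 0.92, SE 0.19), as were the nuclease EXO1 (1.01, SE 0.13), the resection factor RBBP8 (0.62, SE 0.13) and the deubiquitinase BRCC3 (1.404, SE 0.16). Higher in COV362 were SWI5, a recombination factor (123, 58.6 and 76.6 against 24.8, 16.02 and 14.7 CPM, −2.21, SE 0.33), RAD52, an annealing protein (−1.21, SE 0.20), the nuclease subunit EME1 (−1.22, SE 0.15) and FAM175A, the BRCA1 partner abraxas (−1.41, SE 0.30).

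The Fanconi anemia genes, which unhook crosslinks, were called in 11 of 24 cases. FANCF (chr11:22622533-22625841), a core complex subunit, was at 19.7, 24.0 and 27.4 CPM in PEO1 and 5.20, 5.64 and 6.13 in COV362 (2.06, SE 0.18, adjusted p = 4.6e-07), the 1 member at least 4-fold apart. STRA13 (1.504, SE 0.28) and FANCA (0.90, SE 0.23) were also higher in PEO1. FANCC was at 38.2, 36.8 and 32.5 CPM in COV362 and 11.6, 11.3 and 13.5 in PEO1 (−1.56, SE 0.17), with FANCE (−1.39, SE 0.19) and FANCI (−0.87, SE 0.16) on that side.

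Of the end-joining, PARP and 53BP1 genes 6 of 27 tested members were called higher in PEO1, 5 were called higher in COV362 and 16 were not called. PARP1, the sensor of strand breaks that PARP inhibitors target, was at 396, 470.4 and 442 CPM in COV362 and 153, 167 and 152 in PEO1, 2.77-fold lower (−1.47, SE 0.13, adjusted p = 3.7e-07). MDC1, a chromatin platform at breaks listed on several sequences, was higher in COV362 (−1.64, SE 0.22), as was C9orf142, the end-joining factor PAXX (−1.41, SE 0.30). XRCC6, the Ku70 subunit, was slightly higher in PEO1 (0.41, SE 0.11). TP53BP1, which opposes resection at breaks, missed the threshold (50.1, 60.2 and 65.1 against 64.7, 103 and 77.6 CPM, −0.49, SE 0.20, adjusted p = 0.051). It passed with the replicate block (4.1e-04) and without COV362 A (−0.63). It also passed with RLE or upper-quartile scaling, DESeq2, other count filters, the 6 libraries alone or an exon-length offset, but not with limma-voom. POLQ, the polymerase of the end-joining route that homologous recombination-deficient cells rely on, missed the threshold too (0.50, SE 0.21, adjusted p = 0.053). It passed with the block (5.9e-04) and without COV362 B (0.70). RLE scaling, DESeq2, limma-voom, the 6 libraries alone and the exon-length offset also gave a call of POLQ, while upper-quartile scaling and other count filters did not. The list's counts were 10 and 8 with the block, against 4980 and 4930 of all 14498 tested genes.

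Mismatch and excision repair genes were called in 14 of 32 cases, 7 each way. The damage verifier XPA (31.2, 19.7 and 20.8 against 5.74, 6.13 and 3.96 CPM, −2.17, SE 0.29), the mismatch endonuclease PMS2 (−1.41, SE 0.27), the uracil glycosylase UNG (−1.29, SE 0.13) and MGMT, which removes alkyl groups from guanine (−0.73, SE 0.19), were higher in COV362. ERCC6, of transcription-coupled repair, was higher in PEO1 (1.62, SE 0.27). With the block, the counts were 12 and 11, against 4980 and 4930 of all 14498 tested genes.

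**Figure D3:**
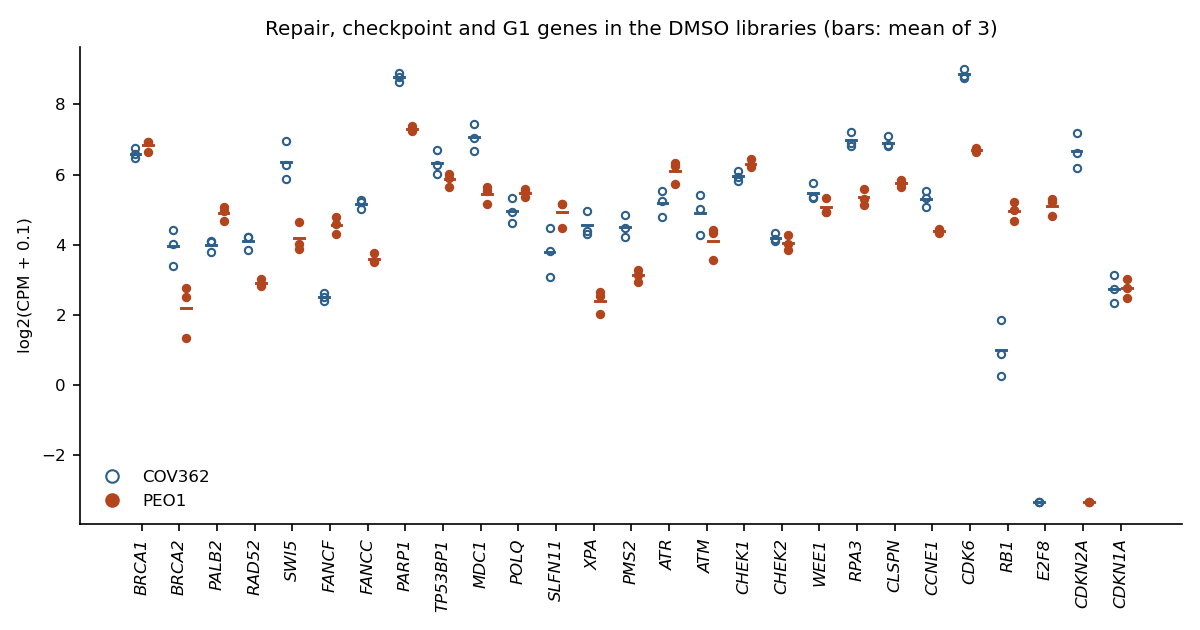
Levels of repair, checkpoint and G1 genes in the DMSO libraries, as log2(CPM + 0.1) on the vertical axis; open blue circles are COV362, filled orange circles PEO1, and bars the mean of 3. Most repair genes lie close together in the lines, genes such as BRCA1, TP53BP1, CHEK2, WEE1, ATM and CDKN1A overlap, and RB1, E2F8 and CDKN2A stand far apart.

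Of the ATR, CHK1 and replication checkpoint genes 8 of 36 tested members were called higher in PEO1, 15 were called higher in COV362 and 13 were not called, and none reached 4-fold. With replicate block and exon-length offset together, 13 were called higher in PEO1 and 16 in COV362, against 5005 and 5120 of all 14498 tested genes. The kinase ATR was at 53.3, 75.0 and 80.1 CPM in PEO1 and 27.5, 45.7 and 37.8 in COV362 (0.90, SE 0.25, adjusted p = 0.0064). CHEK1, the CHK1 gene and the drug's main target, was at 77.9, 86.6 and 74.0 against 68.1, 60.9 and 56.2 CPM (0.37, SE 0.12, adjusted p = 0.016). That small difference was no longer called without COV362 C (0.30) or PEO1 B (0.29). CHEK2 was not called (−0.14, SE 0.17, adjusted p = 0.5). WEE1, the kinase that restrains CDK1, overlapped between lines (39.9, 30.6 and 30.7 against 54.3, 39.9 and 41.2 CPM). Its call (−0.41, SE 0.16, adjusted p = 0.039) was lost without COV362 A (−0.27), PEO1 B (−0.36) or PEO1 C (−0.35). The same edgeR test did not call WEE1 in the 6 DMSO libraries alone (adjusted p = 0.0634) or without the low-count filter (0.0655). ATM overlapped as well (−0.84, SE 0.32, adjusted p = 0.038), and its call was lost without COV362 B (−0.56), COV362 C (−0.82), PEO1 A (−0.62) or PEO1 B (−0.94).

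Replication protein A and its partners were higher in COV362. RPA3 was at 147, 119 and 112 CPM against 48.1, 39.5 and 35.1 (−1.62, SE 0.17), and RPA1 (−0.89, SE 0.11) and RPA2 (−0.90, SE 0.12) were on the same side. The CHK1 adaptor CLSPN (−1.16, SE 0.14), the fork protein TIPIN (−1.26, SE 0.17), the ATR activator ETAA1 (−1.42, SE 0.22) and the phosphatase CDC25A (−0.82, SE 0.13) lay on the same side, and CDC25B on the other (1.17, SE 0.18).

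Among G1 control genes, 8 members were called with at least a 4-fold difference: 6 of 34 tested members were called higher in PEO1, 16 were called higher in COV362 and 12 were not called. RB1 (chr13:48303747-48481890), the retinoblastoma suppressor that holds E2F factors, was at 25.5, 37.2 and 31.4 CPM in PEO1 and 1.09, 1.75 and 3.52 in COV362 (3.82, SE 0.56, adjusted p = 5.2e-05). CDKN2A (chr9:21967752-21994491), which encodes the CDK4 and CDK6 inhibitor p16, was at 146, 72.2 and 97.6 CPM in COV362 with no count in PEO1, at least 1664-fold lower. Its neighbour CDKN2B had 4.11, 2.96 and 3.32 CPM and no count. CDKN2C was higher in COV362 (−2.21, SE 0.19), while CDKN1B, p27 (1.31, SE 0.16), and CDKN2D (1.36, SE 0.30) were higher in PEO1. E2F8, an atypical repressing E2F, had 28.0, 39.5 and 37.0 CPM in PEO1 and no count in COV362, whereas E2F1 was not called (−0.25, SE 0.22, adjusted p = 0.35). TFDP1, the E2F partner, was higher in PEO1 (1.51, SE 0.12).

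Among cyclins and their kinases, COV362 was higher for CDK6 (445, 517 and 433 against 105, 109 and 99.5 CPM, −2.16, SE 0.13), CCND1 (−0.65, SE 0.11), CCND2 (7.73 ± 0.224 CPM against 1 count), CCND3 (−1.76, SE 0.20) and CCNE1 (45.7, 33.8 and 39.8 against 21.7, 20.5 and 20.0 CPM, −0.94, SE 0.15, adjusted p = 1.2e-04). The proliferation antigen MKI67 was also higher there (−0.63, SE 0.18). CDKN1A, the p21 gene, was at 6.66, 5.48 and 8.08 CPM in PEO1 and 4.96, 6.57 and 8.73 in COV362 (−0.02, SE 0.23, adjusted p = 0.94), and MYC at 237, 196.2 and 222 and 265, 162 and 201 (0.06, SE 0.20, adjusted p = 0.8). Both overlapped.

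In the BCL2 family 9 of 17 tested members were called higher in PEO1, 4 were called higher in COV362 and 4 were not called. The death effector BAX (145, 103 and 107 against 39.1, 24.5 and 31.9 CPM, 1.90, SE 0.24), the killers PMAIP1, or NOXA (1.84, SE 0.20), BID (1.63, SE 0.20) and HRK (4.92 ± 0.123 against 0.153 ± 0.166 CPM) and the protector BCL2L2 (1.59, SE 0.14) were higher in PEO1. The BH3-only killers BMF (−3.75, SE 0.31) and BIK (−2.11, SE 0.48, or −2.71 without PEO1 A) and the protectors BCL2L1 (−0.74, SE 0.19) and MCL1 (−0.58, SE 0.11) were higher in COV362. BCL2 was not called (0.23, SE 0.23, adjusted p = 0.41).

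Detoxification genes differed by family. In that list 11 of 28 tested members were called higher in PEO1, 10 were called higher in COV362 and 7 were not called. The glutathione transferases GSTM3 (95.1, 81.7 and 79.9 CPM) and GSTM2 (32.4, 27.1 and 24.8), which have near copies, had no count in PEO1. The carbonyl reductase CBR1 was likewise found in COV362 alone (64.0, 42.1 and 46.9 CPM, at least 834-fold). Metallothioneins, which bind zinc and copper and whose copies share sequence, were higher in PEO1: MT2A (1076, 766 and 976 against 183, 123 and 184 CPM, 2.53, SE 0.25), MT1E (2.30, SE 0.22), MT1X (3.73, SE 0.22) and MT1M (4.80, SE 0.27), with MT1L at no count in COV362. The cation transporter SLC22A3 (51.7, 64.4 and 65.9 against 0, 0 and 0.326 CPM), the aldehyde dehydrogenase ALDH1A3 (1784, 1784 and 1858 against 302, 408 and 467 CPM, 2.20, SE 0.21) and the quinone reductase NQO1 (0.96, SE 0.18) were higher in PEO1. ABCB1, the drug efflux pump, was under 1 CPM in every library and not called (adjusted p = 0.38).

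All 7 tested cancer-testis and oncofetal genes were called, 3 higher in PEO1 and 4 in COV362. PRAME, listed on several sequences, was at 154, 164 and 155 CPM in COV362 against 4.24, 5.37 and 3.24 in PEO1 (−5.20, SE 0.24), and the RNA-binding IGF2BP3 (−2.90, SE 0.23) and the chromatin protein HMGA2 (−1.15, SE 0.16) were also higher in COV362. XAGE2, an X-linked antigen gene, had 48.6, 46.5 and 39.5 CPM in PEO1 and no count in COV362. Of 17 imprinted genes, which are read from 1 parental copy, 7 were higher in PEO1 and 6 in COV362. PEG3 (6.72, 9.01 and 9.62 CPM), NAP1L5 (9.14, 5.27 and 4.84) and NDN (108, 89.6 and 80.0 against 3.02, 3.12 and 3.58) were PEO1 genes, and the zinc-finger factor PLAGL1 was a COV362 gene (29.3, 40.5 and 44.1 against 0.131, 0 and 0 CPM).

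A gene was counted as present in 1 line when it had at most 3 counts over the other line's libraries and at least 5 CPM in its own. There were 109 such genes in PEO1 and 101 in COV362, of which 64 and 67 had no count at all in the other line. In the other line's 3 prexasertib libraries, 71 of the 109 and 63 of the 101 still had at most 3 counts. The most abundant in COV362 was MFAP5, a microfibril protein (295, 279.7 and 255 CPM against 2 counts, a ratio of 7109-fold with a 95% counting interval of 1967 to 58705), followed by MMP2, NF2, CDKN2A, TMEM100, an endothelial and BMP-responsive membrane protein (97.4, 124 and 50.2 CPM, no count), PNOC, the nociceptin precursor (113, 75.7 and 75.7, no count), GSTM3, EMX2, ANO1, a chloride channel (36.8, 57.7 and 60.3 against 2 counts), MTAP, CBR1 and FAM101B (54.4, 37.8 and 45.1, no count). The most abundant in PEO1 were IL1R2, KLK5, VGLL1, KLK6, S100A9, IVL, TMEM178B (96.1, 112 and 108 CPM against 3 counts), RAB25, GALNT3, a mucin glycosyltransferase (69.4, 96.2 and 94.97 against 3 counts), GRHL2, KANK1, an actin regulator (64.8, 80.7 and 78.8, no count), and FAM180A (66.2, 66.8 and 69.0, no count). CALB2, the gene of calretinin, a mesothelial marker (46.0, 40.8 and 39.8), and C1QTNF1 (40.0, 37.8 and 42.6) also had no count in COV362; the other mesothelial markers were lower in PEO1 (LRRN4 and UPK3B) or at 0 (ITLN1), or at 1 count (DES).

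CDKN2A stood in a run of 10 neighbouring tested genes on chromosome 9 (chr9:20658309-22452473 in hg38) that were all called higher in COV362 by at least 2-fold, with a median log2 fold change of −8.21. In order they were FOCAD, HACD4, KLHL9, MIR31HG, IFNE, MTAP, CDKN2A, CDKN2B-AS1, CDKN2B and DMRTA1. FOCAD, at the lower-numbered end, kept 18.99 CPM in COV362 and 7.74 in PEO1, and HACD4 had 71 counts in COV362 and 1 in PEO1. The 8 genes from KLHL9 (chr9:21331019-21335430) to DMRTA1 (chr9:22446841-22452473) had 23 to 4026 counts each in COV362 and no count in any PEO1 library, DMSO or prexasertib. MTAP, which salvages methionine and adenine, had 53.7, 50.7 and 49.4 CPM in COV362. MLLT3, the tested gene next to FOCAD, was higher in PEO1 (log2 fold change 1.35). Whether the locus is present in PEO1 DNA was not tested, and CDKN2B and CDKN2B-AS1 overlap on opposite strands.

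Runs of this kind, at least 5 neighbouring tested genes called in 1 direction with at least a 2-fold difference each, numbered 47 toward PEO1, with 325 genes, and 29 toward COV362, with 187 genes. Called and at least 2-fold apart were 18% of all tested genes toward PEO1 and 17.1% toward COV362. The longest held 20 genes on chromosome 17 from ACTG1 to PYCR1 (chr17:81509971-81937328, median 1.56). Others followed gene families: KRT7, KRT81, KRT86, KRT83, KRT6B, KRT6A and KRT5 on chromosome 12 (median 5.65), KLK5, KLK6, KLK7, KLK8 and KLK10 on chromosome 19 (median 9.03), and 8 protocadherin alpha genes on chromosome 5 (median 6.59), whose shared exons leave single members uncertain. COL4A1 and COL4A2 lay in a run of 14 on chromosome 13 (chr13:108207444-111305734, median 2.15), HOXA2 to HOXA5 in a run on chromosome 7 toward COV362 (median −1.81).

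By chromosome, the balance was uneven. On chromosome 18, 59.1% of 198 tested genes were called higher in PEO1 and 13.6% in COV362 (median log2 fold change 0.75), although CDH2 there was higher in COV362. Chromosomes 9 and 15 leaned most to COV362, with 45.5% of 589 and 45.3% of 435 genes called higher there, followed by chromosome 10 with 40.3% of 573. Their medians were −0.46, −0.47 and −0.37. Copy number was not measured.

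**Figure D4:**
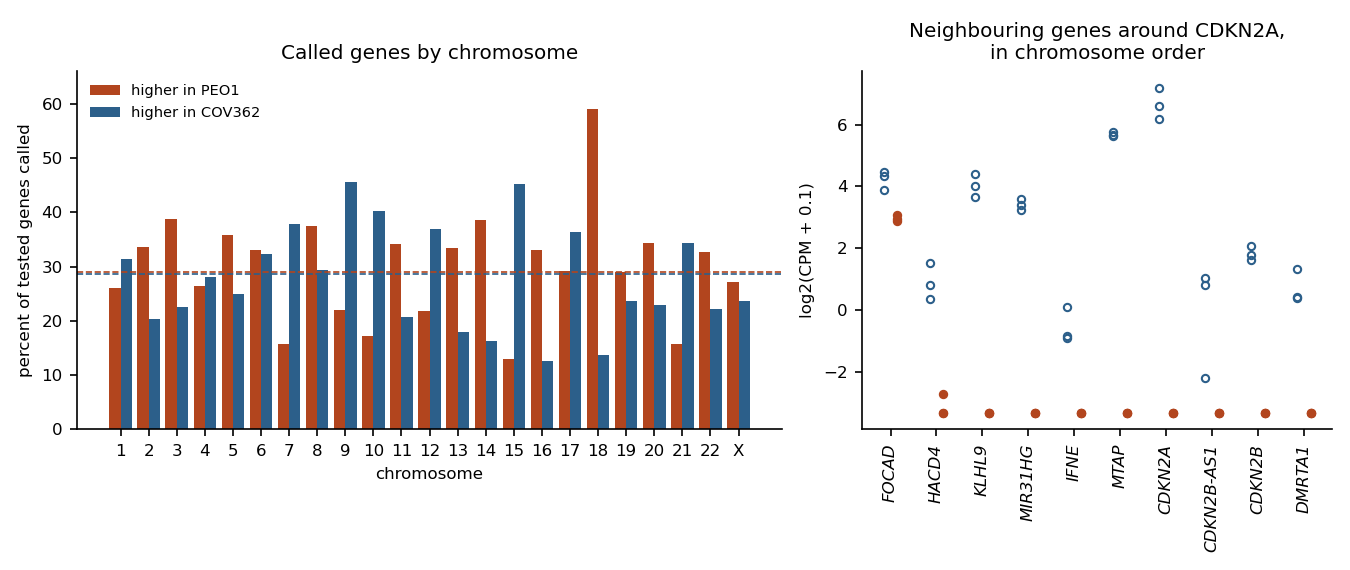
Left, the percent of tested genes on each chromosome called higher in PEO1 (orange) or COV362 (blue), with dashed lines for all tested genes; right, log2(CPM + 0.1) in each DMSO library for the 10 neighbouring genes around CDKN2A in chromosome order (open COV362, filled PEO1). Chromosome 18 stands out for PEO1 and chromosomes 9, 10 and 15 for COV362, and from KLHL9 to DMRTA1 all PEO1 points lie at 0 CPM.

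The same contrast in the 6 prexasertib libraries called 9099 genes (62.8%), 4805 higher in PEO1 (33.1%) and 4294 in COV362 (29.6%). The larger count toward PEO1 was kept with RLE scaling, DESeq2 and limma-voom but not in every setting. The counts were 4235 and 4265 with those 6 libraries alone, 4780 and 4782 with the exon-length offset and 4119 and 5024 with upper-quartile scaling. The group means compared share no library with the DMSO comparison. Both sets of calls take their spread from the same fit of all 12 libraries, so they are not independent. Of the genes called in DMSO, 6653 (79.6%) were called the same way with prexasertib, which is 73.1% of those called there and 45.9% of all tested genes, and 88 genes (0.607% of those tested) were called in opposite directions. The difference itself changed for 885 genes, 6.1% of those tested, by the interaction test of the same fit. Several named genes lay on the same side in both: CDH1 was at 8.28 in DMSO and 8.33 with prexasertib, CDH2 at −4.23 and −4.04, EPCAM at 5.14 and 5.45, ZEB1 at −4.17 and −2.85, and FN1 at 9.38 and 8.04. WT1 changed side, from 0.72 to −0.64 (interaction adjusted p = 0.0235), and was called in each. The gap in VIM widened (−8.21 to −9.81, interaction adjusted p = 0.0056), as did that in CDH6 (−4.15 to −6.21, 3.0e-04), and that in ANKRD1 narrowed (−6.68 to −2.71, 1.4e-07). Among named keratins the gap narrowed in KRT19 from 6.23 to 4.16 (0.003), in KRT15 from 3.44 to 1.04 (0.0042), in KRT7 from 1.92 to 0.55 (0.015) and in KRT8 from 1.13 to −0.09 (0.0039). BRCA2 went from −1.71 to 0.55 (0.034), where it was not called.

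**Figure D5:**
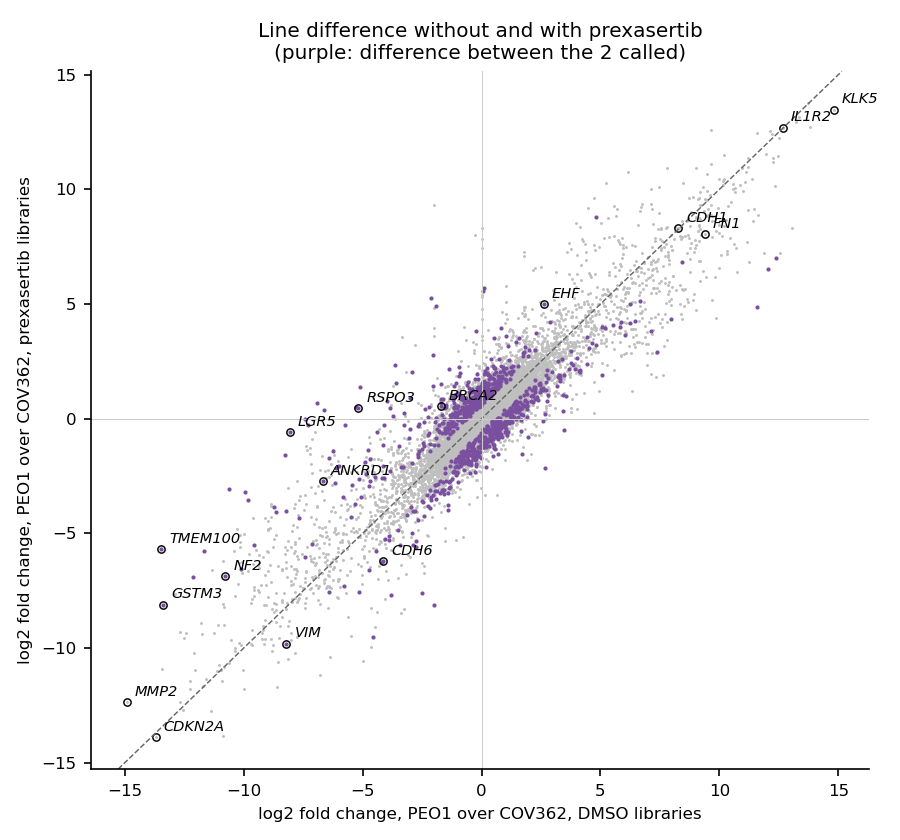
Log2 fold change of PEO1 over COV362 in the DMSO libraries (horizontal) against the same in the prexasertib libraries (vertical) for all tested genes; the dashed line marks equal values and purple points are genes whose line difference changed by the interaction test. Most points follow the line, with MMP2 and CDKN2A low on both axes and KLK5 and IL1R2 high on both, while ANKRD1, RSPO3, LGR5 and BRCA2 lie above it and CDH6 below.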

How the data were processed

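Per the labels' protocols, the library kit was TruSeq RNA v2, which does not mark strand, so reads of overlapping or antisense genes cannot be separated. The deposited table holds whole-number read counts for 26485 genes with positions on hg38; STAR, Subread and featureCounts 1.4.6 are named in the submitters' processing notes, without role or order. No normalization is recorded for these counts, and 0 columns of the table were left unused. A gene whose symbol is listed on several sequences has no single position and none is printed.

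Genes were kept by edgeR's filterByExpr (14498; 7588 had no count in the 6 DMSO libraries), scaled by TMM and fitted with edgeR 4.0.16 in R 4.3.3 as 4 group means over all 12 libraries, and lines were compared by the quasi-likelihood F test with Benjamini-Hochberg adjustment. The same fit gave the line difference with prexasertib and the interaction. The code was checked on simulated counts. Lines, lists and tests were chosen with earlier results of these data known. Named genes were, by rule, the 12 genes at each end of the log2 fold change scale, if called, at 5 CPM or more in the higher line and without overlap, the 3 called members of each list with the largest difference and at least 2 CPM, the 12 most abundant genes found in 1 line in each direction, and a fixed set that includes PAX8, CDH1, BRCA1 and CHEK1. Other list members were named after their values were seen, runs are named where they are the longest or hold list members, and some genes the rule takes are not reported here. The labels do not say whether letters A, B and C pair the lines. Deviations from group means correlated between same-letter libraries at 0.483 (A), 0.247 (B) and 0.219 (C), although COV362 B correlated more with PEO1 C (0.334) than with PEO1 B. A fit with the letter as a block was run because every same-letter value was above 0.1. Other alternatives were RLE, upper-quartile and DESeq2 1.42.0 scaling or tests, limma-voom 3.58.1, other count filters, the 6 libraries alone, an exon-length offset, a 1.5-fold minimum, a threshold of 0.01 and leaving out each library. Promoters came from RefSeq, GRCh38.p14. Intervals and bounds cover counting error only.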

Additional observations from a re-analysis of the deposited data

Results flagged for a closer look

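For 49 of 289 named genes with a test, the line difference with prexasertib departed from the line difference in DMSO by the interaction test of the edgeR fit (adjusted over all tested genes, 6.1% of which were called); values below are prexasertib minus DMSO, on the log2 scale of PEO1 over COV362, from 3 libraries in each of 4 groups. A change in either line enters the value alike, and no cause was tested.

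Among adhesion, keratin and matrix genes, differences of positive sign shrank for KRT7 (−1.37), KRT8 (−1.21), KRT15 (−2.40), KRT19 (−2.08), SFN (−1.396), PKP1 (−2.05), TGM1 (−2.55), CGN (−0.79) and LSR (−2.10). The excess in COV362 grew for VIM (−1.60), CDH6 (−2.06) and CLDN11 (−1.54) and shrank for TNC (1.39). Among lineage factors, the excess of EHF in PEO1 grew (2.38), that of KLF5 (1.20) and SOX4 (1.25) in COV362 shrank, and WT1 went from called higher in PEO1 to called higher in COV362 (−1.35). CALB2 differed by −5.39.

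Among signalling genes, positive values were seen for ANKRD1 (3.97), IGF1R (1.68), DDR2 (2.43), BMP4 (1.64), WNT11 (1.93), SPRY1 (1.94), FGFR3 (4.91), LGR5 (7.49), RSPO3 (5.65) and NF2 (3.91). Negative values were seen for ERBB2 (−1.004), FGFR2 (−1.34), GAS6 (−1.76), INHBB (−1.05), WNT5B (−1.56), WNT7B (−1.02), EFNB3 (−1.90) and LGR6 (−3.91). Of immune genes, OAS2 had 4.06, IFI27 −1.16 and PSMB9 −1.48.

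Among repair, cycle and death genes, BRCA2 had 2.27. CDC25A had 0.73, CDK6 0.76, CDKN1A 1.41, PMAIP1 1.28 and MCL1 0.90, which was called higher in COV362 in DMSO and in PEO1 with prexasertib. The other genes were GSTM3 (5.30), MT1M (−1.58), TMEM100 (7.82) and ANO1 (3.57). Values for CALB2, FGFR3, LGR5, RSPO3, NF2, OAS2, GSTM3, TMEM100 and ANO1 rest on a line with at most 3 counts in DMSO, depend on the fit's prior count and are no measure of size.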

How the results depend on the processing

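Of 290 named genes, 261 kept their side of the threshold and their direction under every alternative. The DMSO count of 8361 called genes was within 1.5 times under each except a 1.5-fold minimum, which tests a larger difference (5258, and 5997 in place of 9099 with prexasertib); leaving out 1 library gave 7513 to 8129, and 8249 to 9150 with prexasertib. With the replicate block 9910 genes were called, and 10478 with prexasertib; it changed the calls of BRCA1, TP53BP1, EGFR, MET and POLQ and no other named gene. With block and length offset together, homologous recombination calls were 9 and 23, against 5005 and 5120 of all 14498 tested genes. Upper-quartile scaling moved the median log2 fold change by −0.10; with that shift, list medians near 0 (FGF, sensors, Fanconi anemia, end joining, imprinted) became negative, CHEK1 (0.26) and YAP1 lost their calls, and MYC turned to −0.040. MYC also changed sign without COV362 B (−0.091) or PEO1 A (−0.0020), ranging from −0.091 to 0.27 as single libraries were left out, and CDKN1A without COV362 C (0.20) or PEO1 B (0.10), ranging from −0.18 to 0.20; neither was called, and the cause was not tested. The exon-length offset ended the call of CHEK1 (0.27) and added calls of TP53BP1 (−0.55) and POLQ (0.46). With block and offset together CHEK1 kept its call, and TP53BP1, EGFR, MET, B2M (0.23), POLQ and E2F1 (−0.25) were called. At 3 libraries a line, genes with few counts in 1 line have fitted differences that hinge on single libraries, so CPM is given for them.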

Other observations

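Several list members outside the naming rule, chosen after their values were seen, extend the account of homologous recombination and the cell cycle. BRIP1, the BRCA1-bound helicase, was higher in COV362 (log2 fold change −0.90), as were the helicase BLM (−0.76), its partner RMI1 (−1.19), the nuclease scaffold SLX4 (−1.09) and MRE11A (−0.61), the nuclease of the MRN complex. RAD50 (−0.51) and NBN (−0.42), the other MRN subunits, were not called, nor was BARD1, the obligate partner of BRCA1 (−0.31). Higher in PEO1 were MCM8 (0.91), MMS22L (0.60) and SWSAP1 (1.25). Among checkpoint genes, the ATR partner ATRIP was higher in COV362 (−0.98) and the clamp loader RAD17 in PEO1 (1.04). CDK4 (−0.66), CDK2 (−0.36) and the activators E2F2 (−1.94) and E2F3 (−1.05) were higher in COV362.

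Further Müllerian list members were far apart: LYPD1, a membrane protein of the LY6 family, at 56.3 CPM in COV362 and 1.46 in PEO1, and CRABP2, a retinoic acid carrier, at 21.4 and 2.13 CPM. Among EMT factors, PRRX1 had a mean of 1.18 CPM in PEO1 and no count in COV362, FOXC2 1.39 CPM in COV362 and no count in PEO1, and SNAI2 was not called (0.956 CPM in COV362, 2.00 in PEO1, overlapping). Of neural and neuroendocrine markers, TUBB3 was called higher in PEO1 (111.5 CPM against 37.2), whereas NCAM1 (19.2 CPM against 2.81), SYP and CHGA were called higher in COV362, and INSM1 had no count in either line.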
